A study of Mus musculus with 6 samples.

Results

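The genes described here are 9 transcription factor genes of tumor-associated macrophages (TAMs): Stat2, Stat3, Stat6, Irf1, Irf5, Irf7, Irf8, Irf9 and Batf3. They were taken by symbol from a table of 39179 genes, and all 9 were found in it. They had been chosen with their values in this same comparison in view, so their group differences are given as a description. Where the fit over all genes called 1 of them, the call is reported as that and supports nothing, since the choice had used the same values. TAMs were sorted as live F4/80+ CD11b+ leukocytes (CD45+) without NK1.1 or Ly6G and with no or dim Ly6C from melanomas formed by a BRAF-mutant line under the skin of C57BL/6 mice, 8 weeks old. In the Ptgs-competent group (3 libraries) the tumor cells carried working Ptgs1 and Ptgs2, the genes of the cyclooxygenases COX-1 and COX-2. In the Ptgs-deficient group (3 libraries) both genes had been removed from the tumor cells by CRISPR editing, so that the macrophages had the host's genotype in both groups and no library came from an edited macrophage. The study's methods state that tumors were pooled for each library, and the spread between libraries is therefore that between pools, not between single animals. The comparison addresses how the loss of cyclooxygenases in tumor cells is reflected in the macrophages around them.

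STAT proteins wait in the cytoplasm, are phosphorylated by JAK kinases at activated cytokine receptors, and then enter the nucleus as dimers. STAT2 pairs with IRF9 to carry type I interferon signals to interferon-stimulated response elements, STAT3 carries signals of the IL-6 and IL-10 families, and STAT6 those of IL-4 and IL-13. The interferon regulatory factors (IRFs) bind related elements: IRF1 is induced by interferon-gamma, IRF7 amplifies the type I interferon response, IRF5 acts downstream of Toll-like receptors, and IRF8 sets the identity of macrophages and of some dendritic cells. BATF3 is a small leucine zipper factor of the AP-1 family that is best known for its need in type 1 conventional dendritic cells (cDC1). In tumors, macrophages respond to interferons and to IL-4 alike, and much of STAT activity lies in protein phosphorylation, which transcript counts do not measure.

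The libraries held 4431184 to 8760679 counts, and between 3.40 and 21.6% of the 8793 genes tested had 0 counts in a given library. The sorted cells carried macrophage transcripts, with 10 of 10 macrophage markers counted in every library. The summed level of these markers was 8678, 10328 and 3402 CPM (counts scaled to library size, with TMM factors) in Ptgs-competent replicates 1, 2 and 3, and 13200, 12980 and 13244 CPM in Ptgs-deficient TAMs. Ptgs-competent replicate 3 therefore stood apart by its lower macrophage sum. It also had the highest sum of 12 melanoma and stroma markers, at 1435 CPM against 339 and 422 CPM in the other Ptgs-competent libraries and 79.0 to 131 CPM in Ptgs-deficient TAMs. The 6 pigment cell genes of that list, Mlana, Pmel, Tyr, Tyrp1, Dct and Sox10, were at 0 in all libraries, and its sum came from its other genes. Whether these transcripts came from stroma or from tumor cells was not tested. The 7 monocyte markers summed to 333 to 679 CPM in the Ptgs-competent and 1608 to 2612 CPM in Ptgs-deficient TAMs. Of those tested, Ccr2 (387, 238 and 114 against 750, 865 and 909 CPM), Ly6c2 and Plac8 were higher without overlap. Plac8 was at 56.9, 109 and 112 against 598, 1183 and 769 CPM (edgeR quasi-likelihood adjusted p 0.0230). Vcan was lower without overlap, at 26.6, 85.2 and 31.0 against 0, 17.1 and 0 CPM, and F10 and Chil3 overlapped. The 8 neutrophil markers summed to 620.2 to 724 CPM in the Ptgs-competent and 452 to 532 CPM in the Ptgs-deficient group, and Ly6g was at 0 in all libraries. Of the 6 neutrophil markers tested, S100a8 and S100a9 were lower without overlap, Retnlg was higher without overlap (20.2, 59.9 and 16.2 CPM against 123, 114 and 180.2 CPM), and Csf3r, Cxcr2 and Mmp8 overlapped, with log2 fold changes of 1.04, -0.97 and -3.03. The part of these shifts in the results on the transcription factors was not tested, and in bulk RNA fewer cells of a type cannot be told apart from less RNA per cell.

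The promoters of the 9 genes were searched for the elements that these factors bind, since several of the genes are themselves targets of STATs and IRFs. RefSeq windows of 250 bases before the start site (assembly GRCm38.p6) were found for all 9 genes, in 12 windows. Both strands were searched for the core of the interferon-stimulated response element (GAAA and GAAA with 2 bases between them, in 2.98% of 32851 windows of all genes), the gamma-activated site bound by STAT dimers (TTCNNNGAA, 7.02%), the STAT6 type site with a wider spacer (TTC and GAA with 4 bases between them, 5.85%), a composite of ETS and IRF elements (GGAA and GAAA with 2 bases between them, 2.3%) and the AP-1 and BATF site (TGANTCA, 6.75%). A match was present in 4 of the 9 genes. The windows of Stat2, Irf1 and Irf8 are shown whole because they hold the matches and lie before every annotated start of the gene, with matches in capitals. For Batf3, whose RefSeq window lies inside the gene span of GENCODE M21, only the 30 bases around its match are shown.
Stat2 (chr10:128270248-128270497, plus strand): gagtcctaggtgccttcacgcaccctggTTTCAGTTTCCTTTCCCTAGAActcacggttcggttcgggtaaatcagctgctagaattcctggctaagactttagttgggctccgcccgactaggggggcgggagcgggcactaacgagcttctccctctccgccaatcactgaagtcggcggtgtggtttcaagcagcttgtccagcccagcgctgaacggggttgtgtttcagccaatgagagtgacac
Irf1 (chr11:53769764-53770013, plus strand): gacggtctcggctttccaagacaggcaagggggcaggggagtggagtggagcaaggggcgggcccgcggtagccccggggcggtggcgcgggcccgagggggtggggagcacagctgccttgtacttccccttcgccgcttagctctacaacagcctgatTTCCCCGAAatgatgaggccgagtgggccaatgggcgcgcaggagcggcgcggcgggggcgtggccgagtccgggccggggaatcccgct
Irf8 (chr8:120736108-120736357, plus strand): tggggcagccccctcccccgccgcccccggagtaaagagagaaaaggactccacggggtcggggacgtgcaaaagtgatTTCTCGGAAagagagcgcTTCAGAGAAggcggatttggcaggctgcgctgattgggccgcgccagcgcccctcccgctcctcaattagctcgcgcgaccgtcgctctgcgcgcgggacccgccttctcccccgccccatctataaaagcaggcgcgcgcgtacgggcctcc
Batf3 (chr1:191098164-191098193, plus strand): tgccacgtgacTTCCACGAAgagcgggggc
In Stat2 the capitals cover 3 overlapping matches: the interferon-stimulated core on the minus strand 222 bases before the start, the ETS and IRF composite at 216 and the STAT6 type site at 210. Irf1 held 1 gamma-activated site, 90 bases before its start. Irf8 held 2, at 171 and 153 bases, and Batf3 held 1, at 239 bases. No window of Stat3, Stat6, Irf5, Irf7 or Irf9 held any of the 5 elements, and the AP-1 and BATF site was in none of the 9 genes. These are matches of letters and not measured binding.

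Across the 9 genes, 8 had a log2 fold change (Ptgs-deficient over Ptgs-competent) above 0, where 50.7% of all genes tested did, and their median was 0.48 beside 0.018 for all genes. Only Batf3 was called, at an adjusted p of 0.05 or lower in the edgeR quasi-likelihood test with a log2 fold change of at least 1.5, as 0.159% of genes tested were on the higher side. These are the study's thresholds. Its methods name a generalized linear model in edgeR but not whether its likelihood ratio or quasi-likelihood form was taken, and with the likelihood ratio test the share was 1.55%. In either direction the quasi-likelihood test called 0.216% of genes tested, the likelihood ratio test 2.74%, DESeq2 3.73% and limma voom 1.4%, which is the background for the calls in gene lists given further on. The call was lost under limma voom and in 5 of the 6 fits that omitted a library, all except that without Ptgs-competent replicate 3. Batf3 and Irf7 were the 2 of 9 genes whose libraries did not overlap between groups, both on the higher side, where 11% of genes tested lay. No gene was separate on the lower side, where 8.01% lay. Because the 9 genes were chosen on this contrast, these counts are not evidence about the family. All 9 passed the filter on low counts, Batf3 only through the Ptgs-deficient libraries, so that it had to differ in order to be included and its call was fixed in direction.

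**Figure D1:**
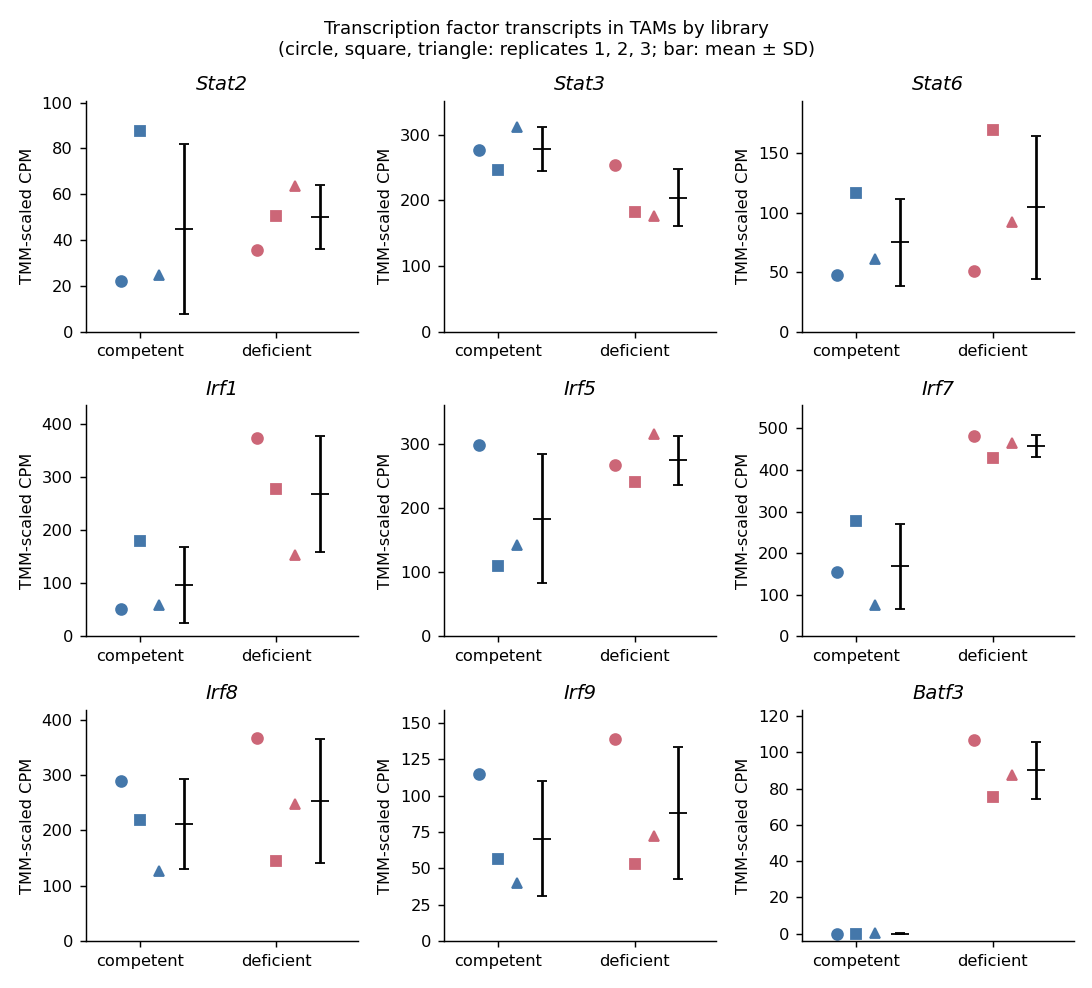
Level of each transcription factor gene in TMM-scaled CPM (vertical axes, separate for each gene) in the 3 Ptgs-competent (blue) and 3 Ptgs-deficient (red) libraries, with the mean ± SD beside them. Batf3 lies at or near 0 in the Ptgs-competent libraries, Irf7 is separate between groups, and the other 7 genes overlap.

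Batf3 (ENSMUSG00000026630; GRCm38 chromosome 1, 191097847 to 191108945, plus strand) showed the widest gap of the 9 genes. It had 0, 0 and 1 counts in Ptgs-competent replicates 1, 2 and 3, and 586, 634 and 424 counts in the Ptgs-deficient libraries, or 107, 75.5 and 87.7 CPM. Every Ptgs-deficient library thus held at least 424 reads of the transcript, while the Ptgs-competent group held a single read. The ratio of the pooled, scaled counts was 1494 and rests on that single read. Against a floor of 3 counts per library, the difference was at least 167-fold. The Ptgs-deficient mean was 90.1 ± 15.8 CPM (SD, n = 3). The fitted log2 fold change of 10.08 depends on the small count that edgeR adds to each library, and was 7.81 with a count of 2 added.

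The cDC1 identity that BATF3 supports was checked in the same libraries. Of 10 cDC1 markers, Xcr1, Itgae, Snx22 and Gcsam were at 0 in all 6 libraries. Clec9a, the receptor for dead cells on cDC1, was counted in Ptgs-deficient replicate 2 alone, at 6.43 CPM. Of 8 markers of other dendritic cells, Zbtb46, which marks conventional dendritic cells, and Ccr7, the receptor of migrating ones, were at 0 in all libraries. Flt3, the receptor of their growth factor, was counted in Ptgs-competent replicate 1 alone, at 5.58 CPM, and Dpp4 in Ptgs-deficient replicate 2 alone, at 22.9 CPM. Kmo was at 2.07, 0 and 0 CPM and at 11.3, 32.6 and 2.07 CPM, and Fscn1 at 0, 15.8 and 42.7 CPM and at 0.365, 0 and 0 CPM. The sum of these 8 markers was 15.8 to 79.8 CPM in the Ptgs-competent and 3.52 to 66.1 CPM in the Ptgs-deficient group. The summed level of the 10 cDC1 markers was 223, 230.3 and 107 CPM in Ptgs-competent TAMs and 303, 575 and 501 CPM in Ptgs-deficient TAMs. Naaa, a lysosomal amidase, made up the larger part of it in Ptgs-deficient replicates 2 and 3. It was at 37.8, 100.4 and 33.2 CPM against 128, 442 and 374 CPM, without overlap. Ifi205 was at 0, 0.164 and 0 CPM and at 0, 16.2 and 8.69 CPM, and Cadm1 at 26.0, 6.89 and 0 CPM and at 20.6, 21.6 and 27.7 CPM. Tlr3 and Wdfy4, the other 2 markers counted, overlapped between groups. The part of dendritic cells in the level of Batf3 was not tested.

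**Figure D2:**
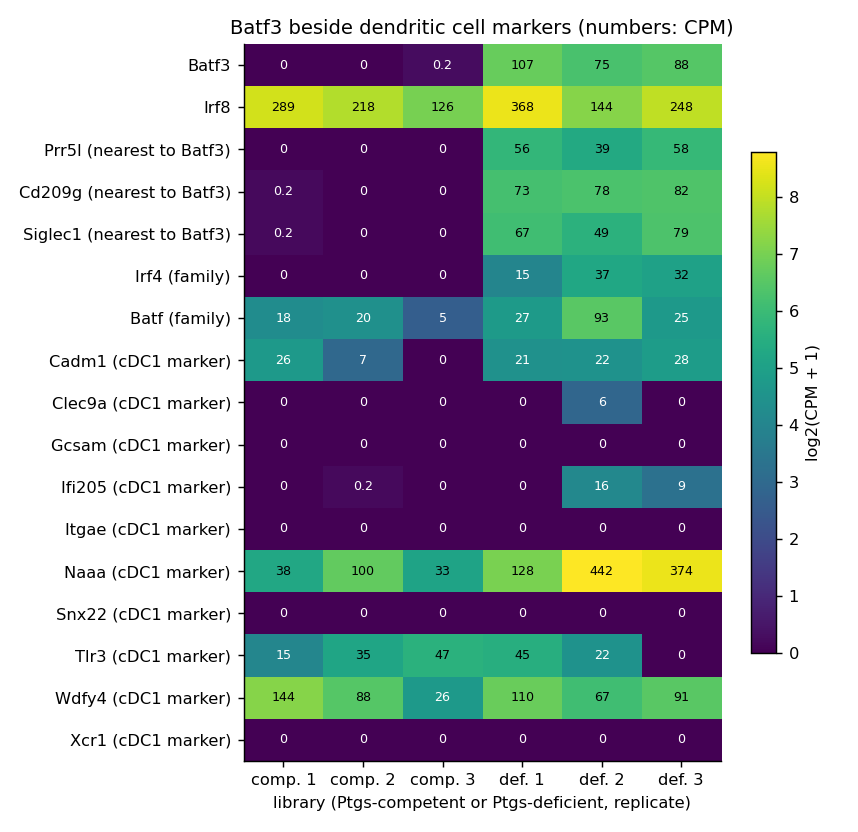
Level in each library (columns) of Batf3, Irf8, the 3 genes with the nearest pattern to Batf3, Irf4 and Batf, and 10 cDC1 markers (rows); color gives log2(CPM + 1) and the printed number gives CPM. Batf3, Prr5l, Cd209g, Siglec1 and Irf4 are at or near 0 in the Ptgs-competent libraries and present in every Ptgs-deficient library, while Xcr1, Itgae, Snx22 and Gcsam are at 0 throughout.

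The genes whose pattern over the 6 libraries was nearest to that of Batf3 were Prr5l, Cd209g and Siglec1. Likeness was measured as the root mean square difference of log2 CPM after each gene was centered on its mean, and was 0.395, 0.417 and 0.458, where the median over all genes was 4.01. Siglec1 encodes the sialic acid receptor CD169 of tissue macrophages. It had 1 count in the Ptgs-competent group and 67.0, 48.9 and 78.8 CPM in Ptgs-deficient TAMs. Cd209g, a C-type lectin gene of a family with close paralogs that may share reads, lay at 73.0, 78.1 and 81.9 CPM in Ptgs-deficient TAMs. Prr5l, a partner of the kinase complex mTORC2, was at 0 in the Ptgs-competent libraries and at 55.7, 39.1 and 58.1 CPM in Ptgs-deficient TAMs. These likenesses rest on a group that is at or near 0.

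Irf7 (ENSMUSG00000025498; chromosome 7, 141262706 to 141266481, minus strand) was the other gene without overlap. Its level was 154, 277 and 74.4 CPM in Ptgs-competent replicates 1, 2 and 3 and 481, 429.9 and 464 CPM in Ptgs-deficient TAMs. The Ptgs-deficient libraries lay close together, with a coefficient of variation of 5.66%, against 60.6% in the Ptgs-competent libraries. The means were 169 ± 102 and 458 ± 25.9 CPM (SD, n = 3 each), and the log2 fold change was 1.44 ± 0.46 (SE). Without Ptgs-competent replicate 3, the library with the low macrophage sum, it was 1.14. The nearest patterns were those of Lsp1, a leukocyte actin-binding protein (0.117), Cd163, the hemoglobin scavenger receptor of macrophages (0.168), and Lmbrd1, a lysosomal cobalamin exporter (0.201). Cd163 was at 147, 188 and 59.1 CPM and then at 415, 305 and 348 CPM, with its lowest level in the same library as Irf7.

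Irf1 (ENSMUSG00000018899; chromosome 11, 53770014 to 53778374, plus strand) had a fold change of the same size with more spread. It was at 52.3, 179 and 59.5 CPM in Ptgs-competent TAMs and at 373, 276 and 154 CPM in Ptgs-deficient TAMs. The groups overlapped because Ptgs-competent replicate 2 exceeded Ptgs-deficient replicate 3. The means were 97.1 ± 71.4 and 268 ± 109.8 CPM (SD, n = 3 each), and the log2 fold change was 1.46 ± 0.56 (SE). Without Ptgs-competent replicate 2 the Ptgs-competent mean was 55.9 CPM, the log2 fold change was 2.26 and the groups no longer overlapped. Its promoter window holds the gamma-activated site shown above, as do those of Irf8 and Batf3 but not that of Irf7, and use of the site was not measured. The nearest patterns were those of Vps37b (0.291), Pigs (0.301) and Cwc25 (0.314), none of them a gene of the lists used here.

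Irf5 (ENSMUSG00000029771; chromosome 6, 29526625 to 29541871, plus strand) was at 297, 109 and 143 CPM in Ptgs-competent TAMs and at 267, 239.8 and 315 CPM in Ptgs-deficient TAMs. Only Ptgs-competent replicate 1 reached the Ptgs-deficient range. Its log2 fold change was 0.58 ± 0.43 (SE), and 1.13 without that library, when the groups no longer overlapped.

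Irf8 (ENSMUSG00000041515; chromosome 8, 120736358 to 120756694, plus strand) was at 289, 218 and 126 CPM in Ptgs-competent TAMs and at 368, 144 and 248 CPM in Ptgs-deficient TAMs. The ranges overlapped, with the highest value in Ptgs-deficient replicate 1, and the log2 fold change was 0.26 ± 0.46 (SE). IRF8 is the partner factor of BATF3 in cDC1. Its transcript was at 126 CPM or more in every library, so its level does not bear on the source of Batf3, which was not tested. Irf9 (ENSMUSG00000002325; chromosome 14, 55603571 to 55610030, plus strand) was at 115, 56.6 and 39.9 CPM and at 139, 52.9 and 72.2 CPM, with a log2 fold change of 0.32 ± 0.64 (SE). The lowest Ptgs-competent value of each was in replicate 3, and without it the log2 fold changes were 0.046 for Irf8 and 0.082 for Irf9. Both turned slightly negative without Ptgs-deficient replicate 1, at -0.085 and -0.15. Irf8 and Irf9 had the most alike patterns of any pair among the 9 genes (0.219), and Irf8 was the second nearest of all genes to Irf9. Mpeg1, which encodes the pore-forming perforin-2 of macrophages, was among the 3 nearest to Irf8 (0.188).

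Stat2 (ENSMUSG00000040033; chromosome 10, 128270559 to 128292849, plus strand) was at 22.0, 87.6 and 25.0 CPM in Ptgs-competent TAMs and at 35.8, 50.6 and 63.5 CPM in Ptgs-deficient TAMs. Ptgs-competent replicate 2 was the highest of all 6 libraries, and the other two Ptgs-competent libraries were the lowest. The means were 44.9 ± 37.1 and 50.0 ± 13.9 CPM (SD, n = 3 each), and the log2 fold change was 0.15 ± 0.86 (SE). Without Ptgs-competent replicate 2 the Ptgs-competent mean was 23.5 CPM and the log2 fold change was 1.09. The direction turned to -0.17 without Ptgs-competent replicate 1, to -0.072 without replicate 3 and to -0.049 without Ptgs-deficient replicate 3. These libraries therefore gave no direction for Stat2.

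Stat6 (ENSMUSG00000002147; chromosome 10, 127642986 to 127660957, plus strand) was at 47.5, 117 and 60.8 CPM in Ptgs-competent TAMs and at 51.3, 169.6 and 92.1 CPM in Ptgs-deficient TAMs. In both groups 1 library was well above the others, and the ranges overlapped. The log2 fold change was 0.48 ± 0.62 (SE), and -0.063 without Ptgs-deficient replicate 2. Stat6 and Stat2 formed the second most alike pair (0.482).

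Stat3 (ENSMUSG00000004040; chromosome 11, 100885098 to 100939540, minus strand) was the only gene of the 9 with a lower mean in the Ptgs-deficient group. It was at 277, 246 and 312 CPM in Ptgs-competent TAMs and at 254, 182 and 177 CPM in Ptgs-deficient TAMs. Ptgs-deficient replicate 1 exceeded Ptgs-competent replicate 2 by a small margin, which made the groups overlap. The means were 278 ± 33.04 and 204 ± 43.1 CPM (SD, n = 3 each), and the log2 fold change was -0.45 ± 0.34 (SE). The sign was the same in 14 of 14 alternative settings, with values from -0.60 to -0.31. The nearest pattern was that of Ywhag, a 14-3-3 adaptor protein (0.0894).

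**Figure D3:**
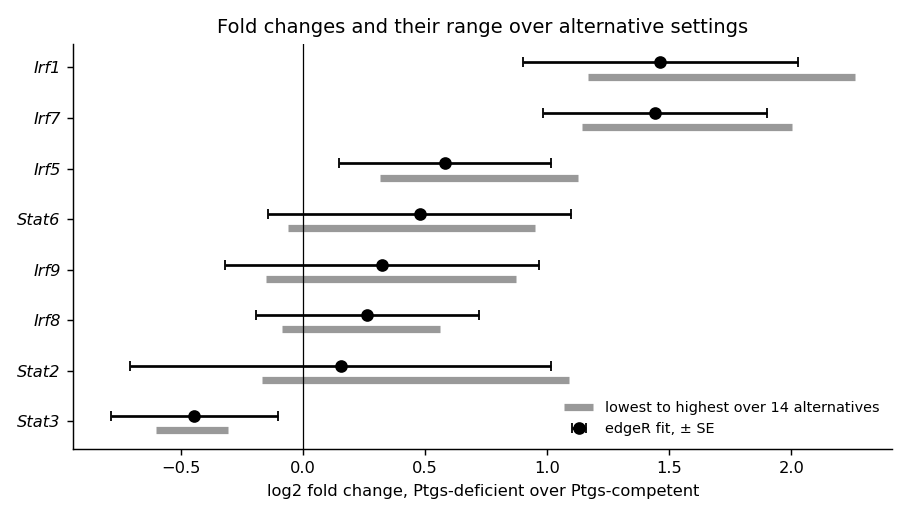
Log2 fold change (horizontal axis, Ptgs-deficient over Ptgs-competent) of 8 of the 9 genes with its SE (black) and the lowest to highest value over 14 alternative settings (gray); Batf3, at 10.08, is left off the axis. The ranges of Irf1, Irf7 and Irf5 stay above 0, that of Stat3 stays below 0, and those of Stat2, Stat6, Irf8 and Irf9 cross it.

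Single libraries moved the genes in different directions. Ptgs-competent replicate 2 held the highest Ptgs-competent value of 4 genes (Stat2, Stat6, Irf1 and Irf7) and the lowest of 2 (Stat3 and Irf5). Ptgs-deficient replicate 1 held the highest Ptgs-deficient value of 6 genes (Stat3, Irf1, Irf7, Irf8, Irf9 and Batf3) and the lowest of Stat2 and Stat6. In GENCODE M21, 7 of the 9 genes overlap another protein-coding gene. The overlap spans all 20337 bases of Irf8, with a gene model on the same strand, and 40 to 1045 bases in the other 6 genes. The strand setting of the counting was not given in the sources used here, so reads in these stretches cannot be assigned with certainty.

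Of the other members of these families, 6 of 9 passed the filter, 5 of them with a log2 fold change above 0 and a median of 1.31. The edgeR quasi-likelihood test called 0 of them (1 at an unadjusted p under 0.05), and the likelihood ratio test and DESeq2 each called 1, Irf4. Irf4 passed the filter only through the Ptgs-deficient group, and the median of the other 5 was 0.91. Irf4, which partners with BATF factors and acts in IL-4 responses, had 0 counts in all Ptgs-competent libraries and 15.0, 37.2 and 32.1 CPM in Ptgs-deficient TAMs. Against a floor of 3 counts per library, this is a difference of at least 52.1-fold (edgeR adjusted p 0.267). Batf was at 18.3, 20.4 and 5.17 CPM and at 26.8, 93.0 and 25.2 CPM, without overlap (adjusted p 0.930). Stat5b, which carries signals of growth factor receptors, was at 17.7, 3.28 and 36.6 CPM and at 56.6, 52.0 and 97.9 CPM, also without overlap (adjusted p 0.781). Irf2, an antagonist of IRF1, was the 1 gene with a log2 fold change below 0, at -0.45 ± 0.73 (SE).

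Upstream of the STATs, 19 of 20 genes of cytokine receptors and JAK kinases were tested, 12 with a log2 fold change above 0 and 7 below, with a median of 0.19. It lay between 0.096 (without Ptgs-deficient replicate 1) and 0.61 (without Ptgs-competent replicate 2) when 1 library was left out, moved by over 1.5 times without each library other than Ptgs-competent replicate 3, and was 0.77 under limma voom. The edgeR quasi-likelihood test called 0 of them (1 at an unadjusted p under 0.05), as did the likelihood ratio test and DESeq2. Il4ra, the receptor chain through which IL-4 and IL-13 activate STAT6, was at 1491, 1319 and 789.6 CPM in Ptgs-competent TAMs and at 762, 639.9 and 734 CPM in Ptgs-deficient TAMs. It was the only gene of that list without overlap, on the lower side, with a log2 fold change of -0.75 ± 0.32 (SE; edgeR adjusted p 0.515). Lifr, the receptor of leukemia inhibitory factor, and Csf2rb, the shared chain of the GM-CSF, IL-3 and IL-5 receptors, overlapped between groups, with log2 fold changes of 1.053 ± 0.87 (SE) for Lifr and -0.58 ± 0.49 (SE) for Csf2rb. Of the sensors, adaptors and kinases that activate IRFs, 23 of 25 were tested, 16 above 0 and 7 below, with a median of 0.56. It was 1.59 without Ptgs-competent replicate 3, 0.88 without Ptgs-deficient replicate 2 and 1.28 under limma voom. The quasi-likelihood test called 0 (4 at an unadjusted p under 0.05), the likelihood ratio test 0 and DESeq2 2. Zbp1, a sensor of left-handed nucleic acids, was at 63.9, 74.0 and 53.0 CPM and at 189, 234 and 198 CPM (adjusted p 0.158). Unc93b1, which escorts endosomal Toll-like receptors, and Ticam2, an adaptor of TLR4, did not overlap either, with log2 fold changes of 1.89 ± 0.51 (SE) and 3.66 ± 1.34 (SE). In this list 7 genes lay higher without overlap and 1, Tlr13, a sensor of bacterial ribosomal RNA, lay lower.

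Of the feedback inhibitors, 16 of 18 were tested, 11 above 0 and 5 below, with a median of 0.82, or 0.50 without Ptgs-deficient replicate 2. The edgeR quasi-likelihood test called 0 (2 at an unadjusted p under 0.05), the likelihood ratio test 0 and DESeq2 1, Ptpn2. Isg15, a ubiquitin-like protein induced by interferon, was at 181, 263 and 188 CPM and at 486, 581 and 288 CPM. Socs3, which restrains STAT3 signaling, was at 213, 276 and 206 CPM and at 420.04, 319 and 352 CPM. Ptpn2, a phosphatase of JAKs and STATs, was at 0.797, 0 and 0 CPM and at 34.9, 28.5 and 45.3 CPM. The groups of each of these 3 genes did not overlap, and their edgeR adjusted p values were 0.346, 0.690 and 0.357. In this list 3 genes lay higher without overlap and 1 lay lower. Ptpn2, the 1 call of DESeq2 and 1 of the 2 genes at an unadjusted p under 0.05, passed the filter only through the Ptgs-deficient group, which fixed its direction. Of the partner and co-regulator genes, 17 of 18 were tested, 13 above 0 and 4 below, with a median of 0.89. The quasi-likelihood test called 0 (6 at an unadjusted p under 0.05), the likelihood ratio test 1 and DESeq2 2. Klf4, which acts with STAT6 in macrophages, was at 249, 319 and 164 CPM and at 1092, 918 and 709.97 CPM (adjusted p 0.0773). The AP-1 genes Fos and Jund, which can dimerize with BATF factors or act beside them, differed by 1.80 ± 0.49 (SE) and 1.84 ± 0.55 (SE) on the log2 scale, and both were separate between groups.

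Downstream of the factors, known targets were grouped by the factor through which they are induced. Of 19 tested genes induced through STAT2 and IRF9, 18 had a log2 fold change above 0, 8 were higher without overlap, and the median was 1.69. This median was 3.23 without Ptgs-competent replicate 1, 2.62 without Ptgs-competent replicate 2 and 3.58 under limma voom. Herc6, Ifit2 and Siglec1 reached 10 counts in no Ptgs-competent library and passed the filter only through the Ptgs-deficient group, so their direction was fixed by inclusion. Of the other 16, 15 were above 0 and 5 higher without overlap, with a median of 1.48. Beside this, the sum of 11 NK and T cell markers was 1.51 to 2.13 CPM in the Ptgs-competent and 16.6 to 33.1 CPM in the Ptgs-deficient group, and 6 of the 11, Ncr1, Gzmb, Prf1, Cd3e, Cd8a and Cd4, were at 0 in all libraries. Klrk1, the receptor NKG2D, was at 0 in every Ptgs-competent library and at 26.3, 4.29 and 16.1 CPM in the others. It passed the filter only through the Ptgs-deficient group, which fixed its direction. Gzma was at 1.12, 1.64 and 1.29 CPM and at 5.29, 20.4 and 0.207 CPM. Klrb1c, the gene of NK1.1, was at 0.478, 0.492 and 0 CPM and at 0, 0.595 and 0.207 CPM, and both genes overlapped between groups. The part of NK and T cells in the levels of this list and of the IRF1 list was not tested. Ifi27l2a was the 1 gene called by the quasi-likelihood test, while the likelihood ratio test and DESeq2 each called 6 genes of this list, 3 of them Herc6, Ifit2 and Siglec1, and limma voom called 2. It rose from 434, 370 and 294 to 1242, 2116 and 2182 CPM, a log2 fold change of 2.34 ± 0.34 (SE; edgeR adjusted p 0.0330), and has a close paralog that may share reads. The call was kept without Ptgs-competent replicate 3 and lost without each of the other 5 libraries. Rsad2, which encodes the antiviral enzyme viperin, was at 66.8, 21.01 and 17.2 CPM and at 445, 348 and 223 CPM (adjusted p 0.0762). Ifit2, an interferon-induced RNA-binding protein, was at 1.12, 0.164 and 0.216 CPM and at 42.9, 65.4 and 90.0 CPM (adjusted p 0.105). Siglec1, with the values given above, had an adjusted p of 0.0693. Stat2 itself gave no direction in the same libraries and Irf9 overlapped between groups.

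Of the genes induced through IRF1 and gamma-activated sites, 16 of 24 were tested, 14 above 0 and 2 below, 8 higher without overlap, with a median of 1.81. The edgeR quasi-likelihood test called 0 (5 at an unadjusted p under 0.05), and the likelihood ratio test and DESeq2 each called 2, Tap1 and Tap2. Tap1 and Tap2, which form the peptide transporter of antigen presentation, were separate between groups. Tap1 was at 83.2, 38.9 and 57.1 CPM and at 244, 245 and 231 CPM (edgeR adjusted p 0.112). Tap2 was at 11.8, 2.63 and 5.39 CPM and at 71.0, 192 and 35.4 CPM (adjusted p 0.198). Psmb8, a subunit of the immunoproteasome, was at 384, 202 and 115 CPM and at 494, 643 and 792 CPM (adjusted p 0.292).

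Among the lists, that of STAT6 targets had the highest median. Of 17 genes, 12 were tested, 11 with a log2 fold change above 0, 10 of them without overlap and 2 called, with a median of 3.54, or 3.05 with the 3 genes at the floor set at their lower bounds. These 3, Alox15, Ccl17 and Ccl24, had 0 counts in all Ptgs-competent libraries and passed the filter only through the Ptgs-deficient group, so that they had to be higher. Of the other 9, 8 were above 0 and 7 higher without overlap, with a median of 2.32. The likelihood ratio test and DESeq2 each called 7 genes of this list, 2 of them Ccl17 and Ccl24, and limma voom called 3. Clec10a, a C-type lectin, rose from 72.4, 119 and 142 CPM to 1154, 1932 and 2012 CPM, a log2 fold change of 3.93 ± 0.40 (SE; edgeR adjusted p 0.00453). Retnla, which encodes the secreted protein RELM alpha, rose from 636, 676 and 713 to 6422, 9203 and 14796 CPM, a log2 fold change of 3.91 ± 0.40 (SE; adjusted p 0.00453). Both calls held in 5 fits when each of the 6 libraries was left out in turn, and were lost without Ptgs-competent replicate 1. Ear2, an eosinophil-associated ribonuclease of a family with near-identical copies, had a log2 fold change of 4.64 ± 0.80 (SE; adjusted p 0.0629). Mgl2, a lectin gene with Clec10a as its close paralog, and Egr2, a zinc finger factor induced by IL-4, had values of 3.16 ± 0.61 and 2.32 ± 0.46 (SE; adjusted p 0.0821 and 0.0924). The Stat6 transcript itself overlapped between groups, and the level of Il4ra was lower without overlap.

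The STAT3 list was the most evenly split. Of 17 genes 15 were tested, 8 above 0 and 7 below, with 2 separate on each side, and a median of 0.36, or 0.24 without Ptgs-competent replicate 2 and 0.16 without Ptgs-deficient replicate 2. The quasi-likelihood test called 0 (2 at an unadjusted p under 0.05), the likelihood ratio test 0 and DESeq2 1, Ccnd1. Ccnd1, which encodes cyclin D1, was at 452, 412 and 1615 CPM and at 285, 209 and 148 CPM, a log2 fold change of -1.95 ± 0.55 (SE; edgeR adjusted p 0.242). Its highest value was in the library with the highest sum of melanoma and stroma markers. Junb, an AP-1 gene also counted among the partners, was at 1473, 1183 and 735 CPM and at 2971, 2517 and 1906 CPM. Socs3, also counted among the inhibitors, was likewise higher without overlap. Of the 7 lists in which the quasi-likelihood test called 0 genes, limma voom called 1 gene each among the sensors, the IRF1 targets and the STAT3 targets, 2 among the partners and 0 in the other family, receptor and inhibitor lists. The 9 lists share some genes, were written with earlier results of these libraries known, and were compared with all genes tested by counts and medians alone.

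**Figure D4:**
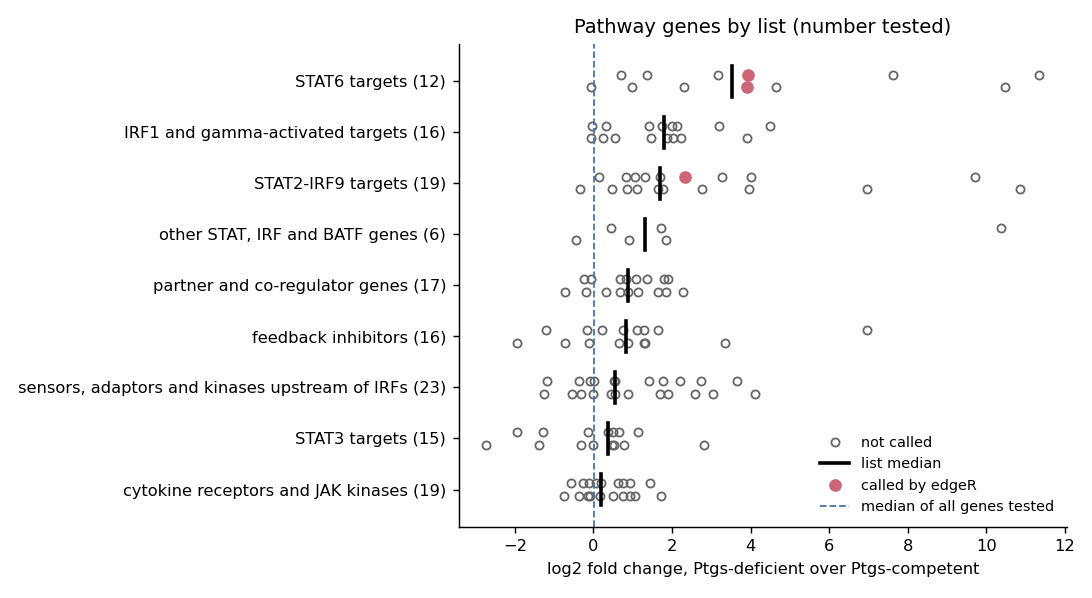
Log2 fold change (horizontal axis, Ptgs-deficient over Ptgs-competent) of each tested gene in 9 lists of the STAT and IRF pathways, with the number tested in parentheses, list medians as black bars, called genes filled and the median of all genes dashed. The STAT6 targets have the highest median, 3.54, and the cytokine receptors and JAK kinases the lowest, 0.19, a value that moved with single libraries.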

How the data were processed

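Sorted TAMs (3 libraries from Ptgs-competent and 3 from Ptgs-deficient tumors) were profiled with a kit that reads transcript 3′ ends. The authors deposited 1 table of raw counts per gene. According to the study they trimmed reads with BBDUK, fqtrim and cutadapt, aligned them with STAR to GRCm38 and counted them with featureCounts. A count does not scale with transcript length. No molecular identifiers were stated, so floors are in reads and cover counting error only. A floor of 3 counts corresponded to 0.357 to 0.647 CPM.

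The analysis used edgeR 4.0.16 in R 4.3.3: filterByExpr (minimum count 10, total 15), TMM scaling, and the quasi-likelihood test, two-sided, its p-values adjusted by Benjamini-Hochberg over all 8793 tested genes. SE was derived from the log2 fold change and the F statistic (their ratio, with the square root of F). The test was run on simulated data first. All 9 factor genes were named, with called genes and up to 3 of smallest p in each list, and the 3 nearest patterns to each factor. The genes and lists were chosen with earlier results of these data known, and 1 gene of the family is not reported here. Alternatives were RLE scaling, library totals, no filter, a prior count of 2, a replicate block, the likelihood ratio test, DESeq2 1.42.0, limma 3.58.1 voom, and leaving out each library. Gene spans came from GENCODE M21 and promoters from RefSeq. Symbols follow the deposited table, except where it uses an older one.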

Additional observations from a re-analysis of the deposited data

How the results depend on the processing

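Between 3.40 and 21.6% of genes tested had 0 counts in a library, and low genes rest on few reads. The number of genes called was 19 and depended on the test and filter: it was 252 with no filter, 241 with the likelihood ratio test, 328 with DESeq2, 123 with limma voom, and 0 to 25 when 1 library was left out. Of the list genes, 3 were called, against 21 with no filter, 17 with the likelihood ratio test, and 0 to 4 without 1 library. For list genes DESeq2 (22) and limma voom (10) were added after seeing the data, and the calls of the likelihood ratio test and DESeq2 include genes that passed the filter through 1 group only. Batf3 was called in 8 of 14 alternatives. It was the 1 factor gene called, with 0 called under limma voom, and 0 to 1 when 1 library was left out, when it held without Ptgs-competent replicate 3 alone. At an unadjusted p under 0.05 the fit without Ptgs-competent replicate 1, which called 0 genes, had 1231. The number of factor genes without overlap ranged from 2 to 5. Correlations across genes were -0.049, -0.022 and -0.022 between same-numbered libraries of the 2 groups, and -0.017 to 0.045 between differently numbered ones. Replicate numbers thus showed no pairing, but values this small cannot exclude a shared batch, since 0 counts in single libraries weaken them. A replicate block called 77 genes, 7 list genes and 1 factor gene. Under this block, where the median of all genes was 0.26, list medians that moved by over 1.5 times were 3.17 for the STAT2 and IRF9 targets, 1.48 for the sensors, 0.72 for the receptors and 0.11 for the STAT3 targets. Under limma voom, where the median of all genes was 0.39, the log2 fold change of Irf8 was -0.065 and that of Irf9 -0.079. With a prior count of 2, Batf3 was at 7.81. Without 1 library, the log2 fold changes ranged from -0.17 to 1.09 for Stat2 (-0.072 without Ptgs-competent replicate 3 and -0.049 without Ptgs-deficient replicate 3), -0.063 to 0.95 for Stat6, -0.60 to -0.31 for Stat3, 1.17 to 2.26 for Irf1, 0.32 to 1.13 for Irf5, 1.14 to 2.0 for Irf7, -0.085 to 0.56 for Irf8, -0.15 to 0.87 for Irf9 and 9.57 to 12.15 for Batf3. The cause of these shifts was not tested.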
